A study of Mus musculus with 4 samples.

Results

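Latrophilins, teneurins and fibronectin leucine-rich transmembrane (Flrt) proteins are cell surface proteins that bind one another across the synaptic cleft and between migrating neurons. The 10 genes described here are the 3 latrophilin genes Adgrl1, Adgrl2 and Adgrl3, the 4 teneurin genes Tenm1, Tenm2, Tenm3 and Tenm4, and the 3 genes Flrt1, Flrt2 and Flrt3. They were taken by symbol from a table of 19465 genes, and all 10 were found. Latrophilins are adhesion G protein-coupled receptors found in neurons, and the one encoded by Adgrl1 is a receptor of the black widow toxin alpha-latrotoxin. Teneurins are large transmembrane ligands whose expression follows matching patterns in connected brain areas, and Tenm3 is known for its part in wiring hippocampal and visual circuits. Flrt proteins bind latrophilins, and they also bind the netrin receptors of the Unc5 family, through which they can repel axons and migrating neurons.

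The study measured gene expression in coronal, formalin-fixed and paraffin-embedded brain sections cut through the striatum, with the Visium CytAssist assay, which captures gene probes on a grid of barcoded spots that each cover a small region of tissue. The sections came from 4 mice, 2 wild type and 2 heterozygous for Celsr3, an adhesion G protein-coupled receptor gene of the cadherin family, and no mouse was treated. Neither the age of the mice nor the nature of the Celsr3 allele was given in the sources used here. The barcode endings split the 12602 spots into 4 sets, and the labels tie no set to a mouse or genotype, so genotypes were not compared and every value is given by set. With 1 section per set there is no replicate error. Intervals are exact 95% intervals that cover counting error only, and probes differ in yield from gene to gene, so levels are compared between areas or sets and not between genes.

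Total counts ran from 90752475 in set 4 to 174761560 in set 1, and the median count per kept spot from 26444.5 to 52481. Of 4744 different barcodes, 1613 occurred in all 4 sets; a shared barcode was not taken to link spots. Variable genes outside the family grouped 12601 spots into 27 clusters, of which 18 took a name from marker genes. The 8 clusters rich in general cortical markers held 868, 1053, 1143 and 1032 spots of sets 1 to 4, called cortical spots here. The 5 clusters rich in striatal markers held 680, 820, 848 and 522, called striatal spots. Each of the 6 cortical markers in the cortical spots and each of the 14 striatal markers in the striatal spots was higher than in the other spots of every set. The libraries were not alike in their clusters: cluster 5 (striatal, 97.0% of its spots from set 2), cluster 19 (striatal, 99.7% from set 4) and cluster 6 (cortical, 98.4% from set 4) belonged almost wholly to 1 set, so partly different clusters made up the same area in different sets.

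Over the whole section, Adgrl1 and Tenm3 differed most between sets, Adgrl1 being higher in sets 2 and 4 and Tenm3 in sets 1 and 3, and Tenm4 differed least. Levels are in CPM, the counts of the gene per 1000000 counts of the set. Adgrl1 measured 93.5, 213, 78.3 and 236 CPM in sets 1 to 4. It was low in sets 1 and 3 and high in sets 2 and 4, with set 4 over set 3 at 3.02-fold (2.95 to 3.09). Tenm3 was high in sets 1 and 3, at 75.1, 34.3, 105 and 41.2 CPM, with set 3 over set 2 at 3.06-fold (2.95 to 3.17). Part of the Tenm3 level of set 3 came from a small cluster of 105 spots found at a finer clustering. The other spots of set 3 measured 85.7 CPM. Tenm2 measured 72.7, 35.1, 60.9 and 41.2 CPM, and its highest set was 2.07-fold (2.00 to 2.15) above its lowest. These 3 genes were at least 2-fold apart, on the scale of log2(CPM + 1), between at least 1 pair of sets, that is 3 of 10 beside 11.1% of the 10144 genes that averaged 10 CPM or more. By pair, sets 1 and 2 had 3 members apart (6.76% of genes), sets 1 and 4 had 1 (Adgrl1, 7.23%), and sets 2 and 3 (4.11%) and sets 3 and 4 (5.61%) each had Adgrl1 and Tenm3. No member was 2-fold apart between sets 1 and 3 (0.493% of genes) or between sets 2 and 4 (0.779% of genes). With TMM scaling, which shifts set 4 against set 1 by 0.25 on the log2 scale, the count was 6 (Adgrl1, Adgrl2, Tenm1, Tenm2, Tenm3 and Flrt2), beside 14.8% of genes.

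Tenm4 was the flattest, at 98.9, 87.6, 85.4 and 85.8 CPM, and its highest set stood 1.16-fold (1.13 to 1.19) above its lowest. Adgrl3 measured 219, 185, 244 and 183 CPM. Adgrl2 had 58.7, 38.8, 54.4 and 33.7 CPM, and Tenm1 had 46.9, 23.8, 37.7 and 34.5 CPM. Among the Flrt genes, Flrt1 was higher in sets 2 and 4, at 62.5, 78.6, 54.9 and 72.9 CPM. Flrt2 was higher in sets 1 and 3, at 62.5, 37.4, 59.2 and 31.2 CPM, and its 2.01-fold range in CPM fell short of the call once 1 CPM was added. Flrt3 was also higher in sets 1 and 3, at 22.7, 18.4, 23.3 and 15.8 CPM. The targeted gene Celsr3 measured 31.7, 46.8, 26.0 and 47.2 CPM. Sets 2 and 4 were also the sets with fewer counts per spot, at a median of 38181.5 and 26444.5 beside 52481 and 44972 in sets 1 and 3. The sections also differed in the areas they held. Sets 1 to 4 had 150, 0, 2 and 303 thalamus spots, and 26, 140, 261 and 0 spots of cluster 15. The parts of depth and of area content in these set differences were not tested.

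**Figure D1:**
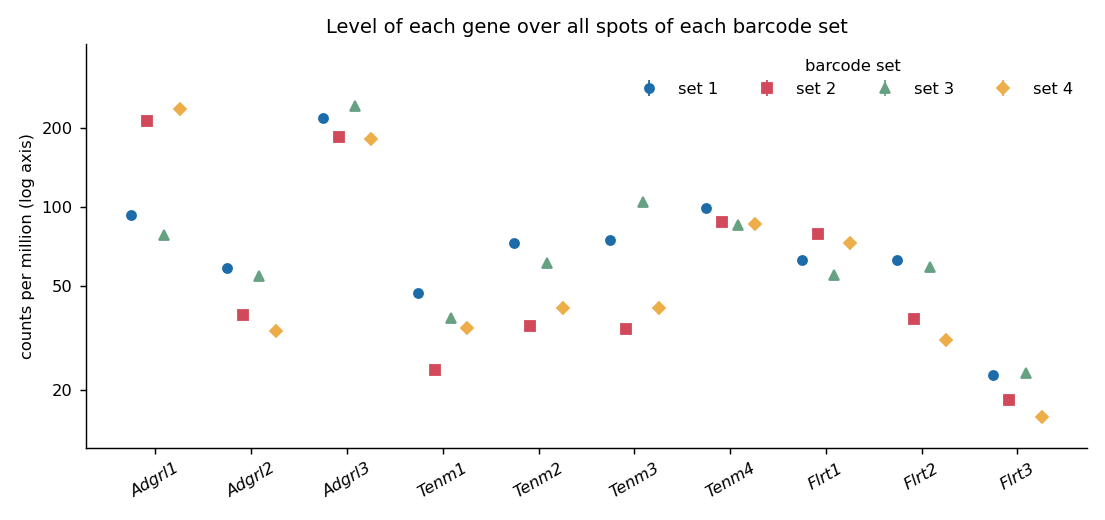
Level of each of the 10 genes over all kept spots of each barcode set, in CPM on a log axis, with exact 95% Poisson intervals that are mostly smaller than the symbols. Adgrl1 lies at 213 and 236 CPM in sets 2 and 4 and below 100 CPM in sets 1 and 3, Tenm3 is higher in sets 1 and 3, and Tenm4 stays between 85.4 and 98.9 CPM.

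The set differences were also present inside each area. In the cortical spots Adgrl1, Tenm3 and Flrt2 were 2-fold apart in at least 1 pair of sets (3 of 10 genes, beside 10.0% of all genes tested). In the striatal spots these were Adgrl1, Tenm2 and Tenm3 (3 of 10, beside 9.75%). Adgrl1 in striatal spots measured 114, 215, 80.3 and 279 CPM, and in cortical spots 120.4, 250.4, 95.1 and 311 CPM. The sets therefore kept the same order for Adgrl1 in both areas. The counts per set do not separate fewer cells of a type from less RNA per cell.

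The clearest difference between cortical and striatal spots in the family was that of Flrt3, which was higher in striatal spots of every set. Flrt3 encodes a ligand of latrophilins and of Unc5 receptors. It measured 44.1, 32.7, 44.7 and 32.6 CPM in the striatal spots of sets 1 to 4 and 16.6, 11.7, 17.1 and 12.3 CPM in the cortical spots. The ranges of both areas do not overlap. Striatal spots stood 2.65-fold (2.45 to 2.88), 2.79-fold (2.51 to 3.10), 2.62-fold (2.43 to 2.82) and 2.64-fold (2.30 to 3.03) above cortical spots. Flrt3 was the only member at least 2-fold lower in cortical spots in every set, 1 of 10 beside 3.84% of the 9887 genes tested, and no member was at least 2-fold higher there in every set (0 of 10, beside 5.57%).

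Flrt2, the other Flrt gene with a marked difference, showed the opposite pattern. Its cortical levels were 98.2, 49.1, 76.1 and 46.7 CPM, and its striatal levels were 41.8, 24.7, 32.7 and 22.1 CPM. Within each set the cortical level was higher, by 2.35-fold (2.22 to 2.50), 1.98-fold (1.82 to 2.16), 2.33-fold (2.18 to 2.48) and 2.11-fold (1.86 to 2.41), so set 2 alone kept Flrt2 from the 2-fold call. The lowest cortical level, in set 4, lay above the highest striatal level, in set 1. The number of Flrt2 counts per Flrt3 count, which cancels the scaling of the library, was 6.24, 5.53, 6.09 and 5.59 times as large in cortical as in striatal spots of sets 1 to 4. Flrt1 differed little, with cortical over striatal ratios of 1.03, 1.02, 1.09 and 1.10, and its intervals left out 1 in sets 3 and 4 but not in sets 1 and 2.

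Upstream sequences are shown for Flrt3, the member called between cortical and striatal spots, and for Adgrl1, the member with the largest difference between sets inside both areas. RefSeq promoter windows of the assembly GRCm38.p6 matched 9 of the 10 genes. Each sequence below is the 250 bases before the annotated start, 5′ to 3′ on the gene's strand, with every CG dinucleotide in capitals. The Flrt3 window is chr2:140671477-140671726 on the minus strand and the Adgrl1 window chr8:83899848-83900097 on the plus strand, and both windows end at the outer edge of the annotated gene.
Flrt3: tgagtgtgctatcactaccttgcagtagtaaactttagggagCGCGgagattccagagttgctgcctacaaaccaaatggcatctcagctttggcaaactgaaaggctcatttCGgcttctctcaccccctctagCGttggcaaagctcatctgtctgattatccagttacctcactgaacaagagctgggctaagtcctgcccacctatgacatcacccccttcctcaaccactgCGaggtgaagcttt
Adgrl1: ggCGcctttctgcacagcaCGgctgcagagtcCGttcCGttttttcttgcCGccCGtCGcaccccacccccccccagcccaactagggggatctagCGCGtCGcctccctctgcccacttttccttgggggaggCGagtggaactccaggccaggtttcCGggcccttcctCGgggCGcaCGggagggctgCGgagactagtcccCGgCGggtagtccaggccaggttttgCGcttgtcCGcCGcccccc
CG reads the same on both strands. The Flrt3 window holds 5 and the Adgrl1 window 21, with 44.4% and 83.7% of the 32851 promoter windows of this length holding fewer, and a median of 6. The motif TATAAA, searched on the gene's strand, is in the last 50 bases of neither window and in 2.63% of all windows. These counts describe the letters only.

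Among the teneurins, Tenm3 was higher in striatal spots and the others were closer to even. Tenm3 measured 102, 45.9, 123 and 50.8 CPM in striatal spots and 51.3, 25.2, 58.5 and 27.0 CPM in cortical spots of sets 1 to 4. Striatal spots were higher by 1.99-fold (1.89 to 2.09), 1.82-fold (1.69 to 1.97), 2.10-fold (2.01 to 2.19) and 1.88-fold (1.70 to 2.08), just short of the 2-fold call. The levels of both areas overlap over the sets, since cortical spots of sets 1 and 3 exceed striatal spots of sets 2 and 4, so the difference is seen within each set. Tenm1 was higher in cortical spots of sets 1, 2 and 3, by 1.44-fold, 1.52-fold and 1.73-fold, and in set 4 the ratio was 1.02 (0.892 to 1.17). Tenm2 had cortical over striatal ratios of 0.785, 0.815 and 0.854 in sets 1 to 3 and of 1.02 (0.914 to 1.13) in set 4. For both genes the striatal spots join unlike areas, the striatum and a ventral striatal area rich in Pdyn. Against the rest of the section, the median log2 ratios there were -1.48 and 0.46 for Tenm1. For Tenm2 they were 0.34 and -0.62. Tenm4 was nearest to even, from 1.01 in set 1 to 1.19 in set 4.

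The latrophilins differed less between cortex and striatum than Flrt2, Flrt3 or Tenm3. Adgrl3, the latrophilin tied in human genetics to attention deficit hyperactivity disorder, was lower in cortical spots of every set, with 201, 168, 210.4 and 163 CPM beside 247, 216, 257 and 195 CPM in striatal spots. Its ratios of 0.813, 0.779, 0.820 and 0.836 lay close together. Adgrl1 was slightly higher in cortical spots, with ratios of 1.05, 1.17, 1.18 and 1.12, each with an interval above 1. Adgrl2 had ratios of 0.925, 0.791, 1.04 and 0.836, and only in set 3 was it not lower in cortical spots. By the rule that the interval leaves out 1 on the same side in every set, 2 genes (Adgrl1 and Flrt2) were higher and 3 (Adgrl3, Tenm3 and Flrt3) lower in cortical spots, beside 28.7% and 31.3% of all genes. Both shares are near those of all genes, so the family as a list did not stand apart, and its median log2 ratio was -0.06 beside -0.02 for all genes tested. Myelin and other white matter markers summed to between 10010 and 14598 CPM in the striatal spots of the sets and to between 5684 and 8077 CPM in the cortical spots. Their part in these ratios was not tested.

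**Figure D2:**
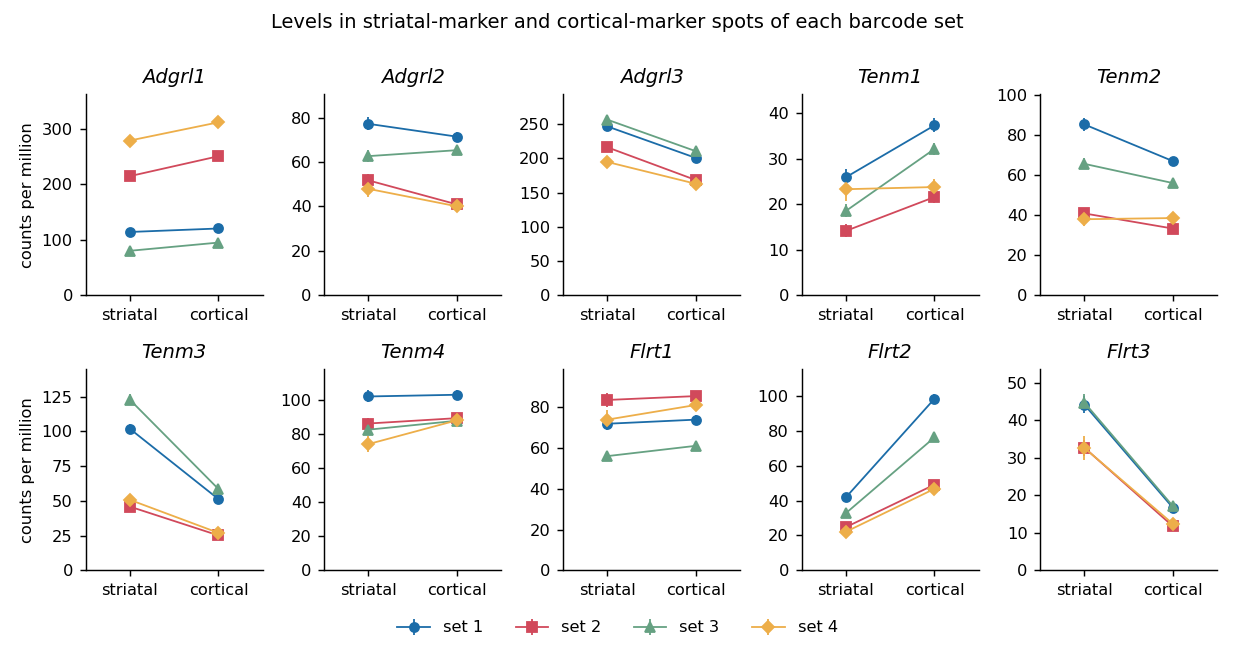
Level of each gene in striatal-marker and cortical-marker spots, in CPM, with lines that join the areas of one barcode set and exact 95% Poisson intervals. Flrt3 and Tenm3 are lower in cortical than in striatal spots of all 4 sets, Flrt2 is higher in all 4 sets, and the sets differ by more than the areas for Adgrl1.

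Of the 18 genes listed as partners or relatives of the family, 17 were tested between cortical and striatal spots. At least 2-fold higher in cortical spots of every set were 3 (beside 5.57% of all genes), among them Unc5d, a receptor of netrins and Flrt proteins, and Shank1, a postsynaptic scaffold. At least 2-fold lower were 3 (beside 3.84%), among them Robo1, a receptor of Slit proteins that also binds Flrt proteins, and Shank3, another Shank scaffold. Unc5d measured 46.9, 32.6, 48.4 and 38.5 CPM in cortical and 13.4, 8.32, 11.1 and 15.2 CPM in striatal spots of sets 1 to 4, a range of 2.53-fold to 4.36-fold. Robo1 had cortical over striatal ratios of 0.441, 0.384, 0.420 and 0.435. Shank1 and Shank3 went opposite ways, with cortical over striatal ratios of 6.13 to 6.79 and of 0.436 to 0.497. The other Unc5 genes were not called: the ratios were 1.35 to 1.56 for Unc5a, 0.516 to 0.642 for Unc5b and 1.24 to 2.22 for Unc5c, which was near 2 in sets 1 to 3 and low in set 4. Adgrl4, the endothelial relative of the latrophilins, was left out by the minimum of 10 CPM.

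Within the cortex, spots were divided by layer markers into upper (235, 293, 289 and 548 spots of sets 1 to 4) and deep (540, 650, 729 and 53). Layer 6b made up 51 of the 53 deep spots of set 4, beside 86 of 540, 129 of 650 and 138 of 729 in sets 1 to 3, so deep spots of set 4 are largely another area. Nearly all the upper spots of set 4 are of cluster 6, and 41.8% of its cortical spots fell in neither group, beside 10.4% to 10.9% in the other sets. No member was 2-fold apart between upper and deep spots in every set (0 of 10 in either direction, beside 0.916% of genes higher in upper and 1.39% lower). By the interval rule 4 members were higher in upper spots (Adgrl1, Tenm2, Tenm4 and Flrt3, beside 10.3% of genes) and 1 was lower (Tenm1, beside 9.29%). The median log2 ratio over the 10 genes was 0.21, and over all genes tested it was 0.00.

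Tenm1 and Flrt3 had the largest differences between layers. Tenm1 measured 19.7, 13.3, 19.3 and 17.7 CPM in upper and 41.6, 23.6, 34.9 and 30.4 CPM in deep spots, so no upper value reached the lowest deep value. Deep spots were higher by 2.11-fold (1.87 to 2.37), 1.77-fold (1.51 to 2.08), 1.81-fold (1.62 to 2.03) and 1.72-fold (1.23 to 2.36). Flrt3 went the other way, with 25.6, 15.7, 23.9 and 15.7 CPM in upper and 12.2, 8.68, 13.3 and 4.84 CPM in deep spots. Its upper over deep ratios were 2.09 (1.84 to 2.39), 1.81 (1.51 to 2.17), 1.80 (1.59 to 2.03) and 3.24 (1.55 to 8.12), the last against deep spots that are nearly all layer 6b. Tenm4 was higher in upper spots by 1.40-fold, 1.19-fold, 1.34-fold and, in set 4, 2.59-fold (1.98 to 3.46). In layer 6b against the rest of the section, the median log2 ratio was -1.38 for Flrt3 and -1.33 for Tenm4. The layer 6b spots also carried white matter markers (mean log2 ratio 1.0, with 10 CPM added). White matter itself stood at -1.21 for Flrt3 and -1.51 for Tenm4. By the same measure the other deep clusters, unnamed clusters 3 and 4, stood at -1.48 and -0.61 for white matter markers. The upper clusters stood lower, at -2.92 in layer 2/3, -1.82 in unnamed cluster 6 and -1.68 in unnamed cluster 20. The part of white matter in the layer 6b values and in the upper over deep ratios of any set was not tested. In upper over deep spots, Tenm2 was higher by 1.23-fold to 1.49-fold and Adgrl1 by 1.17-fold to 1.30-fold. Flrt2 had a ratio near 1.21 in sets 1 to 3, and in set 4 the interval of its ratio of 1.17 (0.901 to 1.53) included 1. The other latrophilins were less even over the sets: Adgrl2 had ratios of 1.14, 0.991, 0.951 and 1.70, and Adgrl3 of 1.18, 1.06, 1.02 and 1.26. Tenm3 stood at 0.740 to 0.932 and Flrt1 at 0.885 to 0.952, below 1 in all 4 sets, with intervals that left out 1 in sets 1 and 2 for Tenm3 and in set 2 for Flrt1.

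Of the partner genes, Unc5d was at least 2-fold higher in upper spots of every set and Unc5b at least 2-fold lower, 1 of 17 tested in each direction (beside 0.916% and 1.39% of all genes). Unc5d measured 90.8, 54.9, 93.7 and 46.9 CPM in upper and 24.2, 17.1, 24.6 and 8.30 CPM in deep spots. Unc5b measured 8.59, 9.90, 6.42 and 13.4 CPM in upper and 21.1, 21.5, 16.0 and 74.7 CPM in deep spots, with the high deep value in set 4. In white matter against the rest of the section, Unc5b was also at least 2-fold higher in every set. It was 1 of 2 such genes among the 18 partner genes, beside 6.29% of all genes. The part of white matter in the Unc5b levels of deep spots was not tested. Unc5a was lower in upper spots of sets 1 to 3, with ratios of 0.806 to 0.845, and higher in set 4, at 1.18. Unc5c had ratios from 0.862 to 1.35, and the interval left out 1 in set 2 only.

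**Figure D3:**
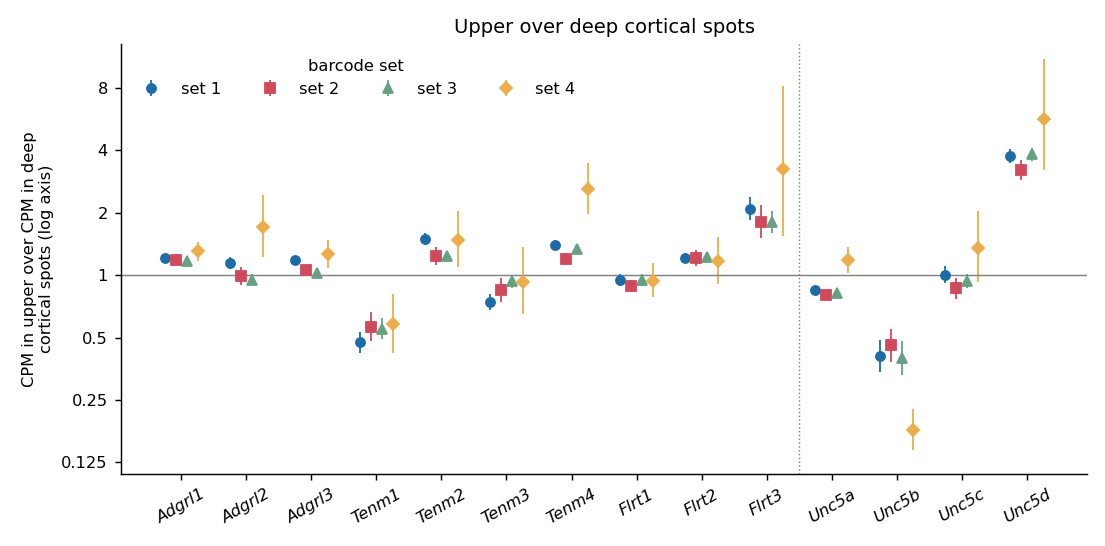
Ratio of the level in upper to that in deep cortical spots for the 10 genes and the 4 Unc5 genes, on a log axis, 1 symbol per barcode set with its exact 95% interval. Tenm1 lies at 0.475 to 0.580 and Flrt3 at 1.80 to 3.24, and the wide intervals of set 4 come from its 53 deep spots.

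Each gene was then followed across 20 areas with at least 30 spots in at least 1 set, by the log2 of its level in the area over its level in the other spots of the set, as the median over sets. Of these areas 14 had at least 3 such sets. Areas carry the name of the marker genes that lead them, or a cluster number. Neighbours in the order of areas mostly overlapped in their ranges over sets, in 14 to 19 of 19 neighbouring pairs depending on the gene. The other neighbouring pairs did not overlap. Unnamed clusters 6 and 21 had enough spots in 1 set only and so have no range. Pairs that include them show no separation over sets.

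For Adgrl1 the order ran from unnamed cluster 6, a cortical cluster of set 4 led by Arc and Prdm8 (0.60), and the layer 2/3 area led by Vip and Lamp5 (0.51) down to the white matter area led by Gfap, Mal and Mbp (-1.38). Adgrl2 was highest in unnamed cluster 20, a cortical cluster led by Kcnab3 and Rorb (0.53), and in the striatum (0.52), which did not differ beyond their ranges. It was lowest in white matter (-1.68) and in unnamed cluster 15 (-1.22), which is led by Lbhd2, Ctxn3 and Prkcd. Adgrl3 had the narrowest range of the 10, from 0.41 in unnamed cluster 10, led by Nts and Cyp26b1, and 0.33 in the thalamus to -0.74 in white matter.

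Tenm1 was higher in the thalamus led by Tcf7l2 and Gbx2 (1.09), in the hypothalamic and preoptic area led by Avp, Oxt and Gal (0.96) and in unnamed cluster 15 (0.91). Its lowest values were in the striatum (-1.48) and the choroid plexus area led by Ttr (-1.40). The choroid plexus spots also carried striatal markers (mean log2 ratio 0.7, with 10 CPM added), and their part in the Tenm1 value there was not tested. The striatum area leaves out the ventral striatal area led by Pdyn and Wfs1, where Tenm1 stood at 0.46 (range -0.05 to 0.58). Over the sets Tenm1 measured 8.85 to 19.0 CPM in the striatum and 33.1 to 61.7 CPM in the ventral area. Tenm2 was also highest in the thalamus (0.96) and lowest in white matter (-1.16). Tenm3 was highest in unnamed cluster 15, at 58.9 CPM in set 2 and 420 CPM in set 3, with log2 ratios of 0.84 and 2.37. The thalamus followed at 1.00, and the layer 2/3 area was lowest (-1.26). Unnamed cluster 15 shares its leading genes with the finer clusters given under other observations. In set 3 the Tenm3 ratio to the rest was 8.10 in the finer cluster of 105 spots. In the finer lateral septum cluster it was 1.77 in set 2 and 1.95 in set 3, beside a median ratio of 2.01 in the thalamus. The first place of unnamed cluster 15 thus leans on 105 spots of 1 library. Tenm4 had its highest median in the thalamus (0.59) and its lowest in unnamed cluster 24, led by Pvalb and Six3 (-1.89), white matter (-1.51) and layer 6b, led by Ccn2 and Cplx3 (-1.33). The thalamus values come from sets 1 and 4 and those of unnamed cluster 15 from sets 2 and 3, so their places were not set against each other within a set. In set 1 Tenm1 measured 97.8 CPM in unnamed cluster 24 and 91.5 CPM in the thalamus, and in set 4 it measured 55.6 and 64.9 CPM.

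Flrt1 varied little outside white matter, from 0.38 in layer 2/3 to -0.52 in the hypothalamic and preoptic area, and stood at -1.12 in white matter. Flrt2 had its highest medians in cortical clusters, at 0.94 in unnamed cluster 6, 0.74 in unnamed cluster 21, 0.73 in unnamed cluster 20 and 0.68 in layer 2/3. Unnamed cluster 15, which is not cortical, followed at 0.62, above cortical unnamed cluster 4 (0.57) and layer 6b (0.45). Flrt2 was lowest in the subventricular area led by Ccdc153 (-1.25), white matter (-1.24) and the thalamus (-1.18). Flrt3 was highest in the striatum (1.22, range 1.16 to 1.26) and in the ventral striatal area led by Pdyn and Wfs1 (1.07), followed by the choroid plexus area (0.89), whose spots also carried striatal markers (mean log2 ratio of the 14 markers 0.70, with 10 CPM added); their part in its value was not tested. Its lowest values were in 2 deep cortical areas, layer 6b (-1.38) and unnamed cluster 4, led by Trbc2 and Rprm (-1.35), and in unnamed cluster 21 (-1.43), a cortical cluster with enough spots in set 4 only.

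Against the rest of the section, 14 areas could be tested for a difference of at least 2-fold in every set, and members were called in 5 of them. In the striatum Flrt3 was higher (1 of 10, beside 3.08% of genes). In white matter Adgrl1, Adgrl2 and Tenm4 were lower (3 of 10, beside 8.25%), and by the interval rule 9 of 10 were lower (beside 31.5%), all but Tenm3. Tenm3 was lower in layer 2/3 (1 of 10, beside 3.62%), and Flrt3 was lower in layer 6b (1 of 10, beside 2.48%) and in unnamed cluster 4 (1 of 10, beside 2.79%).

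**Figure D4:**
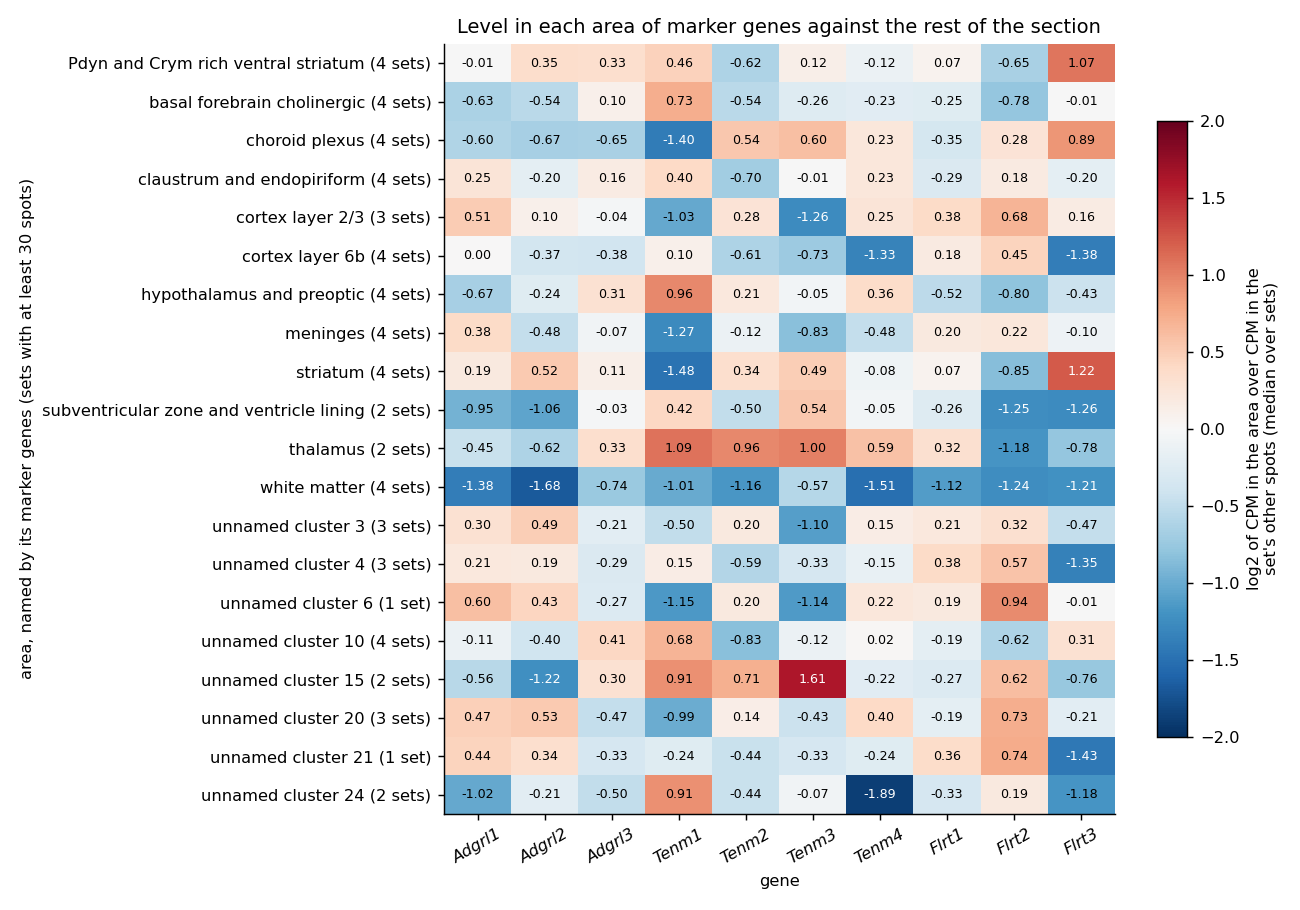
Heat map of the level of each gene in each of 20 areas against the other spots of the same barcode set, as log2 and as the median over the sets with at least 30 spots, with the number of sets in the row label. White matter is below 0 for all 10 genes, the thalamus is above 0.50 for all 4 teneurins, and Flrt3 stands at 1.22 in the striatum.

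Spots of one area also differed from one another, and Tenm1, Tenm2 and Tenm3 ranked above 80% in every set and area. The spread was the squared coefficient of variation of scaled counts between spots of one set and area, less the part that counting gives, ranked among the 500 genes of nearest mean count as a description with no test. For Tenm2, 93.6% to 100% of those genes had a smaller spread in striatal spots of the 4 sets and 89.2% to 97.0% in cortical spots. For Tenm1 the range was 83.2% to 97.8% in striatal and 86.4% to 92.6% in cortical spots. Tenm3 gave 86.4% to 96.6% and 88.4% to 91.0%. Tenm4 gave 82.8% to 84.8% in striatal and 61.6% to 89.2% in cortical spots. Adgrl2 overlapped with Tenm4, at 71.4% to 93.8% in striatal and 57.0% to 88.0% in cortical spots. The sets scattered widely for Adgrl1 (34.6% to 84.6% and 5.80% to 51.2%), Flrt2 (56.2% to 91.0% and 33.0% to 79.0%) and Flrt3 (35.2% to 71.6% and 43.0% to 85.4%). Adgrl3 lay lower, from 1.40% to 52.6% in striatal and 14.0% to 70.8% in cortical spots, and Flrt1 from 16.4% to 55.8% and from 38.6% to 69.6%. Both areas join several clusters, so this spread includes differences between those clusters.

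**Figure D5:**
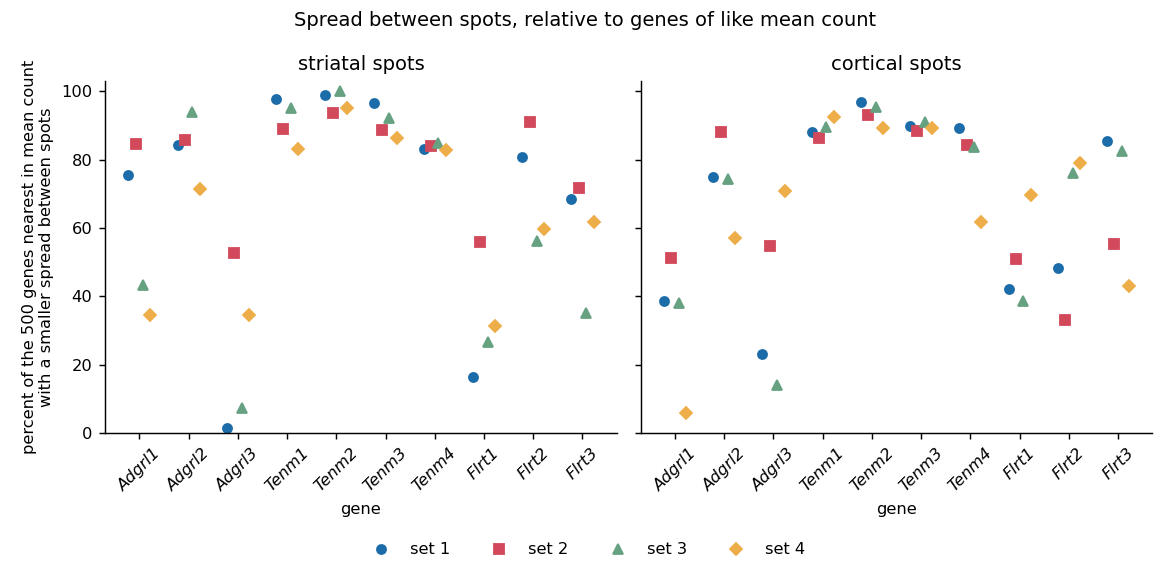
Percent of the 500 genes nearest in mean count whose spread between spots was smaller than that of the gene, 1 symbol per barcode set, for striatal and cortical spots. Tenm1, Tenm2 and Tenm3 lie above 80% in every set and area, and the sets scatter widely for Adgrl1, Adgrl3, Flrt1, Flrt2 and Flrt3.

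The genes whose pattern over the 20 areas was most like that of each member were taken by Pearson correlation of log2(CPM + 1), among 10134 genes. The points share libraries, so the values are a description. Each area entered as the median of its sets with at least 30 spots. Unnamed clusters 6 and 21 entered from set 4 only, the thalamus from sets 1 and 4 and unnamed cluster 15 from sets 2 and 3. Level differences between sets, such as those of Adgrl1 and Tenm3, therefore enter these correlations. Adgrl1 was closest to Rab11fip3 (0.97), Cdk5r2 (0.96) and Mef2d (0.96), Adgrl2 to Lancl1 (0.92), Pcnx2 (0.90) and Gdap2 (0.89), and Adgrl3 to Ica1l (0.88), Nlgn3 (0.87) and Pnmal1 (0.86). Tenm1 was closest to Klhl11 (0.92), Gnl3l (0.92) and Rabgap1 (0.89), Tenm2 to Tars (0.69), Fbxl20 (0.69) and Fancm (0.68), Tenm3 to Dhx29 (0.83), Nol11 (0.82) and Arl6 (0.82), and Tenm4 to Cox18 (0.77), Nell1 (0.76) and Hs6st3 (0.76). For the Flrt genes these were Inpp4a (0.86) and Impdh1 (0.84) with Flrt1, Kalrn (0.81), Setbp1 (0.80) and Spg7 (0.79) with Flrt2, and Alcam (0.86), Gpr83 (0.86) and Tbc1d20 (0.84) with Flrt3. With levels set against the whole section of each set, Tenm3 shared 0 of its 3 genes with this list. Its closest genes were then Pdzd11 (0.85), Cstf3 (0.84) and Gtf2ird1 (0.83). Tenm4 (Hs6st3 and Nell1) and Flrt3 (Gpr83 and Tbc1d20) shared 2 each. The other members shared 1 each: Cdk5r2 for Adgrl1, Lancl1 for Adgrl2, Nlgn3 for Adgrl3, Gnl3l for Tenm1, Tars for Tenm2, Inpp4a for Flrt1 and Setbp1 for Flrt2.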

How the data were processed

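The deposited table holds whole-number probe counts per gene and spot for all 4 sections, made by the authors with Space Ranger and Seurat, per the submitters' processing notes; the genome build is not given in the sources used here. Spots under 500 counts (1 spot) were left out. For clustering, the 10 genes described, the 18 partner genes, Celsr1, Celsr2, Celsr3 and some sex-linked genes were left out. The other genes were scaled to 10000 counts per spot and log-transformed. The 2000 most variable of them were centred within each set, reduced to 30 components and clustered with Leiden (scanpy 1.11.5, resolution 0.8, 15 neighbours). Clusters took a name from at least 3 markers of a fixed list. Counts were summed by set and area and given as CPM. A gene was called where log2(CPM + 1) differed by at least 1 in the same direction in every set with at least 30 spots in both areas (at least 3 such sets), genes averaging under 10 CPM being left out. Nothing was tested between groups, since the sets are tied to no mouse. The calling step was run on simulated counts with counting error only, in which some genes were raised beyond the 2-fold call in every set. That run checks the step itself and cannot show how differences between sections affect the calls. The edgeR package (4.0.16) gave the TMM and RLE factors of the alternatives.

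The genes named were the 10 members, the partner genes called in a contrast, the 4 Unc5 genes, the 3 genes most like each member, leading genes and Celsr3; a few of these are not reported here. Members and lists were chosen with earlier results of these data known. A clustering of values divided by their SD was tried first, and the genes' levels in it were seen before the clustering reported here was adopted. The thresholds for area names, unions and layers, the spread between spots and the Flrt2 per Flrt3 ratio were also chosen after the data were seen.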

Additional observations from a re-analysis of the deposited data

How the results depend on the processing

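Flrt3 was the 1 member called lower in cortical than striatal spots under every alternative run, and leaving out each set in turn gave 1 throughout. The share of all genes called lower was 3.3% to 4.18% in these runs, and 2.55% with no filter on genes. The count of members higher in cortical spots was 1 at resolution 0.4 (Flrt2, beside 5.79% of all genes). It was 0 to 1 when each set was left out, with Flrt2 called without set 1 (beside 6.02%) and without set 2 (beside 5.53%). Between layers, the count higher in upper spots was 0 to 2 when a set was left out (Tenm4 and Flrt3 without set 2, beside 2.99% of all genes; Flrt3 without set 3, beside 1.13%; 0.916% as reported). The upper and deep contrast gave no value without centring, without set 1 or with areas from an Otsu threshold. The median log2 ratio of cortical to striatal spots kept its sign under the 9 other settings (8 with every set, and 1 added later that kept the areas and left out set 4), except for Tenm4 (7 of 9). For Adgrl3 it was -0.29, and -0.23 with TMM, -0.24 with RLE and -0.22 with the Otsu threshold. For Flrt3 it was -1.41, and -1.35 with TMM, -1.36 with RLE, -1.36 at resolution 1.2 and -1.47 with values divided by their SD, an alternative added after seeing the data. The Otsu threshold gave -0.04 for Tenm4 (0.07 as reported), 0.02 for Flrt1 (0.08, and 0.15 with TMM) and 0.96 for Flrt2 (1.15). Leaving out each set gave -1.46 to -1.35 for Flrt3, 1.01 to 1.25 for Flrt2 and 0.48 to 0.90 for Tenm1, the last without set 1. Members 2-fold apart between sets were 6 with TMM, beside 14.8% of all genes. The highest over the lowest set was, with TMM and RLE, 2.58 and 2.58 for Adgrl1, 2.07 and 2.02 for Adgrl2, 1.56 and 1.56 for Adgrl3, 2.22 and 2.17 for Tenm1, 2.33 and 2.29 for Tenm2, 3.40 and 3.41 for Tenm3, 1.29 and 1.28 for Flrt1, 2.38 and 2.33 for Flrt2, and 1.73 and 1.73 for Flrt3. The cause of these shifts was not tested. No paired analysis was possible because the sets are tied to no sample and no group comparison was made. Depth limits the ratios of set 4, which has 53 deep spots.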

Other observations

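At the finer resolution of 1.2, a cluster led by Ctxn3, Lbhd2, Ebf3 and Sln held 105 spots of set 3 and 1 of set 2. Tenm3 measured 694 CPM (672 to 717, from 3628 counts) in these spots of set 3 and 85.7 CPM in the other spots of that set, a ratio of 8.10 (7.81 to 8.40). Tenm3 ranked 42 of 10134 genes by this ratio. In the same spots Tenm1 had a ratio of 2.64, Flrt2 of 2.27 and Adgrl3 of 1.70, while Adgrl2 had 0.282. The cluster was chosen after its values were seen and rests on 1 library. In another cluster of that resolution, named by lateral septum markers, Tenm3 had ratios of 1.76, 1.77 and 1.95 in sets 1, 2 and 3, with 26 spots in set 1. Both clusters share leading genes with unnamed cluster 15 of the reported clustering. Their spot numbers per set together equal those of unnamed cluster 15, so they were not counted as further areas.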
